A study of Rattus norvegicus with 99 samples.

Results

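The epidermal growth factor (EGF) family and its ErbB receptors were followed through the rat heart as 8 genes, taken by symbol from the deposited whole-heart table. They were the ligands Tgfa, Hbegf, Nrg1 and Btc and the receptors Egfr, Erbb2, Erbb3 and Erbb4. All 8 were present among the 17337 genes of the table, and each had values in 21 groups of condition and chamber. The members were chosen by name and role and not by a threshold on their values. The choice was made with earlier results of these data known.

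EGF family ligands are made as membrane-anchored precursors that proteases cut at the cell surface. Tgfa (transforming growth factor alpha) acts through Egfr, Hbegf (heparin-binding EGF-like growth factor) and Btc (betacellulin) bind Egfr and Erbb4, and Nrg1 (neuregulin 1) binds Erbb3 and Erbb4. Erbb2 has no known ligand of its own and signals as the partner of the other receptors, while Erbb3 has little kinase activity and depends on a partner. In the heart, Nrg1 is known as a product of endothelial and endocardial cells that acts on the Erbb4 and Erbb2 of cardiomyocytes, and loss of this signal impairs cardiac function.

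Polyadenylated RNA was sequenced from 3 chambers of 33 male rats, namely the left (LV) and right ventricle (RV) and the septum between them (Spt), giving 99 libraries. The rats were F1 animals with Lewis sires and Wistar Kyoto dams. A clip that does not constrict at placement, and becomes tight as the young animal grows, was put around the pulmonary artery (PAB, loading the RV) or the aorta (AOB, loading the LV), and sham animals were operated without banding. The question was how each chamber responds to pressure load at a compensated stage of hypertrophy (H) and at heart failure (F). Sham-H, PAB-H and AOB-H had 7 animals each, aged 11 weeks and taken 7 weeks after surgery. PAB-F had 3 and Sham-RF had 2 animals, aged 27 weeks and taken 21 weeks after surgery. AOB-F had 4 and Sham-LF had 3 animals, aged 30 weeks and taken 24 weeks after surgery. The ages are those of the sample labels, and other descriptions of the study give different ones. Each library came from bulk tissue of 1 chamber of 1 animal, so a level is an average over all cell types in it.

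Total counts per library were 12562697 to 24197244 (LV), 12057180 to 22134595 (Spt) and 12797020 to 23804054 (RV). Markers of heart muscle were abundant in every library, with a summed level of 28220 to 70549 CPM (counts scaled to a common library size) over 5 cardiomyocyte markers. The library numbers in the labels form 3 separate runs, called library series 1, 2 and 3 here, whose meaning the labels do not state. In LV and RV, the failure stage and its shams lie in series 2, while the groups of 7 animals are spread over series 1, 2 and 3 with 2, 3 and 2 animals each. In Spt those groups have 2 animals in series 2 and 5 in series 3, which also holds the failure stage and its shams. The difference between RV and LV libraries of an animal, correlated across genes with the median difference of the other animals, was below 0 in 3 of 33 animals, with Pearson's r between -0.585 and -0.564, and between 0.0195 and 0.714 in the others. These 3 animals, Sham-H replicate 6, PAB-H replicate 2 and AOB-H replicate 1, go against the ventricle labels, and responses of members to banding at the compensated stage in LV and RV are given with and without them. Levels, medians and ranges in CPM or FPKM include them.

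All members were of low abundance. Per gene length, Hbegf had the highest level in young shams, with median FPKM (a count scaled by gene length and depth) of 2.87 in LV, 2.89 in Spt and 2.49 in RV of Sham-H. Erbb2 followed with median FPKM of 1.09, 0.907 and 1.30 in the same order of chambers, and its range did not reach that of Hbegf in any chamber. In LV the lowest Hbegf value was 1.98 FPKM and the highest Erbb2 value was 1.36 FPKM. Erbb3 had median levels of 0.623 FPKM in LV, 0.521 in Spt and 0.938 in RV, and Egfr had 0.558, 0.489 and 0.602. The ranges of Erbb3 and Egfr overlapped with each other and with Erbb2 in every chamber. Btc lay between 0.320 and 0.374 FPKM in median and Erbb4 between 0.241 and 0.364. Nrg1 and Tgfa were lowest in each chamber, with median FPKM of 0.191 and 0.154 (LV), 0.142 and 0.146 (Spt) and 0.222 and 0.204 (RV), and neighbours in this lower end of the order did not differ beyond their spread. In counts, the median over all 99 libraries was 83 for Hbegf, 92 for Erbb2, 43 for Erbb3 and 38 for Egfr. The median was 19 for Tgfa, 18 for Erbb4, 15 for Nrg1 and 4 for Btc. Counting error is therefore large for Nrg1, Erbb4 and Btc, and for Tgfa outside its high libraries, with 3 to 218 counts.

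**Figure D1:**
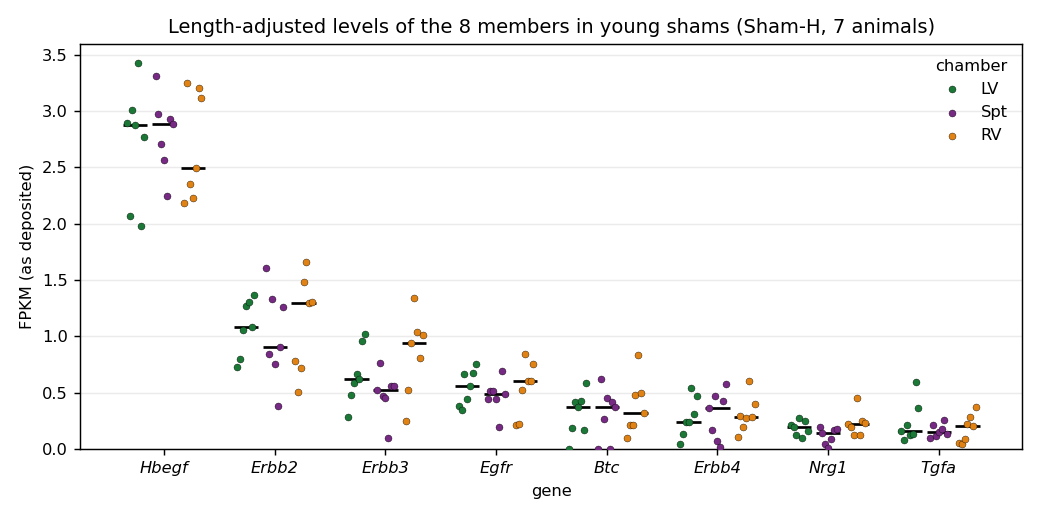
Deposited FPKM values (linear y axis) of the 8 members (x axis) in the 7 Sham-H animals, with points for single libraries coloured by chamber and black lines for medians. Hbegf lies above all other members in each chamber, while the points of Btc, Erbb4, Nrg1 and Tgfa overlap near the bottom of the axis.

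Each of the 4 banded groups was set against its shams chamber by chamber, which gave 12 comparisons. Btc did not pass the filter on low counts, so 7 of 8 members were tested. Among the 36 tests of the 3 ligands, 14 had an unadjusted p under 0.05 in edgeR's quasi-likelihood test and 1 was past the adjusted threshold of 0.05. Among the 48 tests of the 4 receptors the counts were 1 and 0. The share of all genes at an unadjusted p under 0.05 ranged from 0.937% (AOB-H RV) to 15.9% (AOB-H Spt) over these comparisons, and the difference between ligands and receptors was not tested. The receptors' log2 fold changes ranged from -0.75 to 1.10 and those of the ligands from -1.96 to 2.49. PAB-H and AOB-H share the Sham-H libraries, and the chambers of a condition come from the same animals, so these comparisons are not independent of each other. Of the 14 ligand tests at an unadjusted p under 0.05, 5 were of Tgfa, 5 of Hbegf and 4 of Nrg1. Of all genes tested, 0.837% passed an adjusted p of 0.05 in AOB-F LV, 0.232% in AOB-F Spt and 0% in AOB-F RV. The share was 0% in each of the other 9 banding comparisons, namely all chambers of PAB-H, AOB-H and PAB-F.

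**Figure D2:**
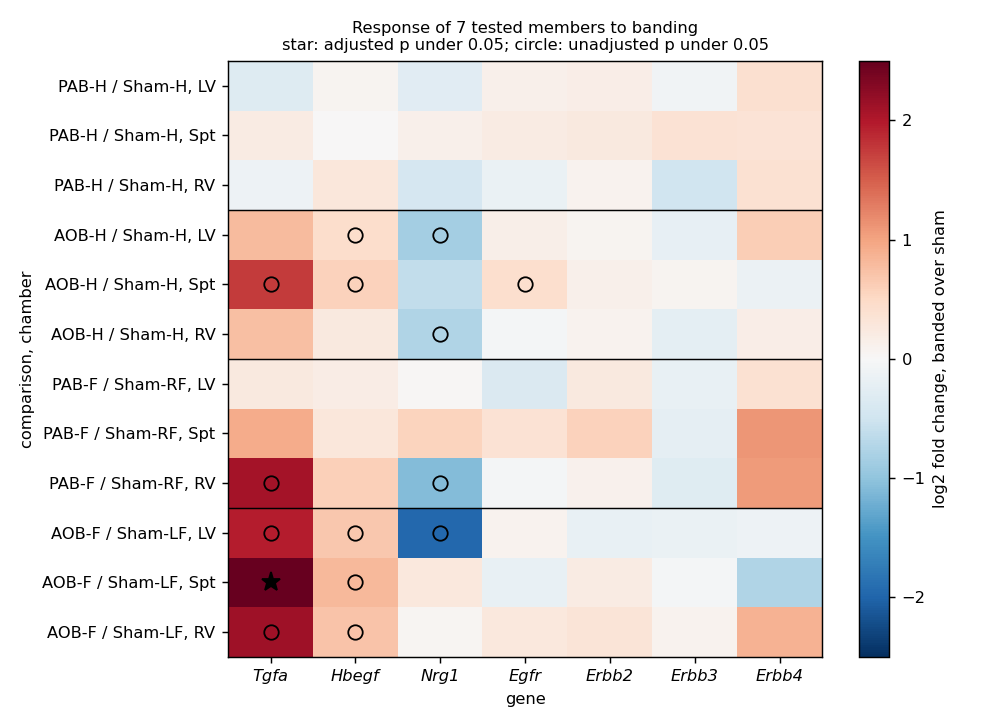
Log2 fold change of banded over sham animals (colour scale, red higher and blue lower) for the 7 tested members (columns) in 12 comparisons of condition and chamber (rows), with a star for an adjusted p under 0.05 and a circle for an unadjusted p under 0.05. The only star is Tgfa in AOB-F Spt, and 14 of the 15 marked cells lie in the columns of the ligands.

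Tgfa was higher in AOB-F than in Sham-LF in the septum. Its levels were 12.6, 4.85, 12.8 and 5.47 CPM in the 4 AOB-F animals and 1.60, 0.969 and 2.03 CPM in the 3 Sham-LF animals, from 95 to 193 and from 11 to 33 counts. Every AOB-F library lay above every Sham-LF library, and AOB-F replicates 1 and 3 were the highest. The mean was 8.95 ± 4.38 CPM (SD, n = 4) against 1.53 ± 0.534 CPM (SD, n = 3). The log2 fold change was 2.49 ± 0.44 (SE, edgeR quasi-likelihood test, adjusted p = 0.0250), which is the lowest adjusted p of all genes in this comparison. In AOB-F Spt, Tgfa was 1 of 7 tested members past the threshold, against the 0.232% of all genes. The call was lost without AOB-F replicate 1 (adjusted p = 0.187) or 3 (0.104), and without Sham-LF replicate 1 (0.0902) or 2 (0.186). It was also lost when only the libraries of both groups were fitted (0.292) and when all 99 libraries were fitted together (0.131), so that it held in 10 of 16 alternatives, while the log2 fold change stayed between 2.28 and 2.74 over all alternatives and the adjusted p ranged from 0.000196 to 0.292. A change in the number of cells of a type and a change in RNA per cell cannot be told apart in bulk tissue.

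In the LV of the same animals Tgfa was 16.5, 4.45, 4.08 and 9.24 CPM in AOB-F and 2.12, 1.81 and 2.70 CPM in Sham-LF. The groups again did not overlap, and replicate 1 held the highest level. This gave a log2 fold change of 1.95 ± 0.64 (SE), which did not pass (adjusted p = 0.135), except when AOB-F replicate 3 was left out (adjusted p = 0.0457, over a range of 0.0457 to 0.626 across alternatives). In LV, 1 member was higher in all AOB-F libraries than in all Sham-LF libraries and 1 was lower in all, where 5.67% and 6.21% of all genes tested did the same. In Spt, 2 members, Tgfa and Hbegf, were higher without overlap, against 5.40% of all genes.

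In the RV of AOB-F, Tgfa was 8.12, 1.23, 1.02 and 11.7 CPM, against 0.916, 1.40 and 1.49 CPM in Sham-LF. Replicates 1 and 4 stood above the shams while replicates 2 and 3 lay within their range, so the groups overlapped. Its log2 fold change there was 2.12 ± 0.72 (SE, adjusted p = 0.328). After pulmonary artery banding, RV levels of Tgfa were 1.04, 5.40 and 5.77 CPM in PAB-F against 1.16 and 0.777 CPM in Sham-RF. Here replicates 2 and 3 stood above both shams and replicate 1 lay between them. The log2 fold change was 2.08 ± 0.88 (SE, adjusted p = 0.545). In the other chambers of PAB-F the log2 fold change of Tgfa was 0.92 in Spt, where levels of 1.68 to 3.65 CPM lay above 1.07 and 1.54 CPM in Sham-RF, and 0.24 in LV.

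At the compensated stage Tgfa was higher in AOB-H Spt, from 0.867 to 4.36 CPM with a median of 1.95 CPM, than in Sham-H Spt, from 0.423 to 1.10 CPM with a median of 0.619 CPM. Of the 7 AOB-H animals, 5 were above all 7 Sham-H animals. The log2 fold change of 1.74 ± 0.34 (SE) missed the threshold in edgeR (adjusted p = 0.153) and passed it in the DESeq2 Wald test (adjusted p = 0.00299), and in edgeR it passed without AOB-H replicate 6 or 7 (adjusted p = 0.0210 and 0.00886), with a range of 0.00299 to 0.766 over all alternatives. Without the 3 animals whose ventricles go against their labels the log2 fold change was 1.74. AOB-H LV and RV gave log2 fold changes of 0.78 and 0.75 for Tgfa, which were 1.30 and 0.54 without those animals and did not pass either way, while PAB-H gave values between -0.32 and 0.20 in the 3 chambers (-0.05 in LV and -0.02 in RV without those animals), none with an unadjusted p under 0.05.

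**Figure D3:**
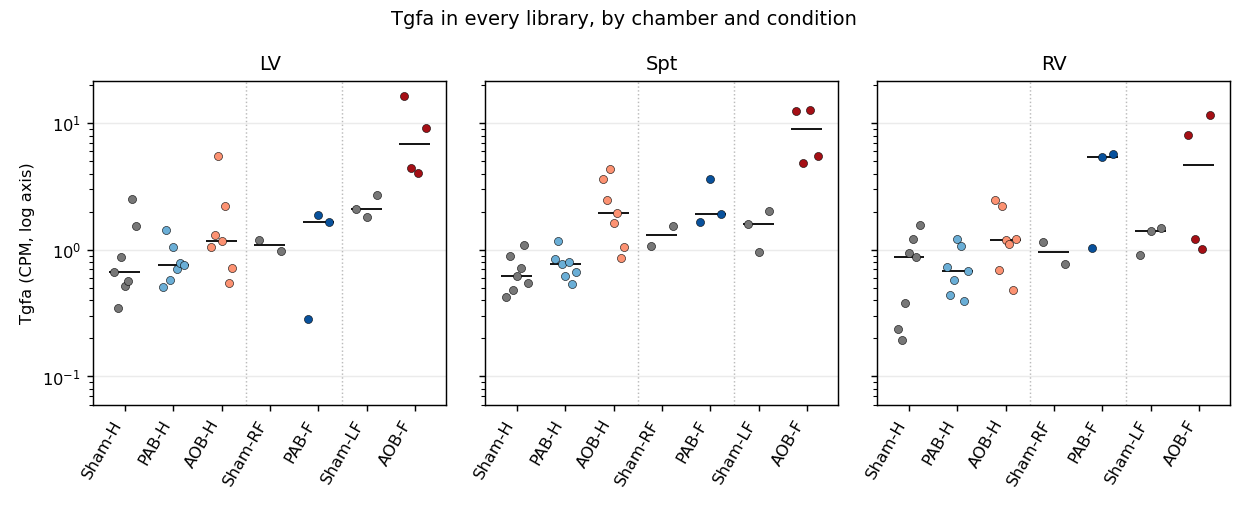
Tgfa level in CPM (log y axis) in each of the 99 libraries, in panels for LV, Spt and RV with the 7 conditions along the x axis, black lines for medians, grey points for shams and dotted lines between stages. All 4 AOB-F libraries lie above all 3 Sham-LF libraries in LV and Spt, whereas in RV 2 of 4 AOB-F and 2 of 3 PAB-F libraries lie above their shams.

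Markers of other cells moved beside Tgfa. All 6 macrophage markers had a log2 fold change above 0 in AOB-F Spt, with 2 of 6 at an unadjusted p under 0.05, a median of 0.43 and summed levels of 262 to 394 CPM against 204 to 276 CPM in Sham-LF. In AOB-F LV all 6 were higher as well, 5 of them at an unadjusted p under 0.05, with 383 to 641 CPM against 333 to 397 CPM. None of these markers passed an adjusted p of 0.05. The 5 cardiomyocyte markers were all lower in AOB-F Spt, with a median log2 fold change of -0.28 and a summed level of 35096 to 47234 CPM against 51851 to 64198 CPM. The 5 atrial markers include Nppa, a gene that loaded ventricles also express. In AOB-F LV all 5 were higher, 1 of them past an adjusted p of 0.05, with a median log2 fold change of 2.69. In AOB-F Spt 2 of 5 were higher, 1 of them at an unadjusted p under 0.05, with a median of -0.09. Their summed levels in LV were 2344 to 17476 CPM against 756 to 994 CPM in Sham-LF. In Spt they were 2164 to 14150 CPM against 534 to 1320 CPM. Of 6 Schwann cell markers in AOB-F Spt, 4 were lower and 1 higher at an unadjusted p under 0.05, with a median of -0.78. Their summed levels were 68.4 to 105 CPM against 74.7 to 134 CPM in Sham-LF. In AOB-H Spt all 6 macrophage markers were also higher, 4 of them at an unadjusted p under 0.05, with a median of 0.31. All 5 cardiomyocyte markers were lower there, 3 of them at that level, with a median of -0.26. In that comparison 15.9% of all genes were at that level, and none of these markers passed an adjusted p of 0.05. The part of these cells in the Tgfa results, and in the Hbegf and Egfr values of AOB-H Spt, was not tested.

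Hbegf, which is released from the cell surface by metalloproteinases, had log2 fold changes above 0 in all 12 banding comparisons, between 0.01 and 0.82, and passed an adjusted p of 0.05 in none of them with edgeR or DESeq2, with 5 at an unadjusted p under 0.05. In AOB-F Spt its levels were 8.30, 7.30, 12.1 and 6.96 CPM, against 5.13, 4.23 and 5.10 CPM in Sham-LF. All AOB-F libraries were higher. This was a log2 fold change of 0.82 ± 0.29 (SE, adjusted p = 0.195). In AOB-F LV the levels were 11.2, 8.42, 4.94 and 10.1 CPM against 5.46, 5.42 and 5.58 CPM. Replicate 3 was below the shams and the others were above them. Its log2 fold change of 0.66 ± 0.27 (SE, adjusted p = 0.253) passed only without that replicate, at 0.86 (adjusted p = 0.0458, over a range of 0.0458 to 0.771). In AOB-F RV, Hbegf was 7.98, 3.03, 4.22 and 9.70 CPM against 3.05, 2.79 and 5.50 CPM, with a log2 fold change of 0.72 ± 0.33 (SE, adjusted p = 0.369). Replicates 1 and 4, the high Tgfa libraries of this chamber, were also the 2 libraries of Hbegf above all shams.

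At the compensated stage, Hbegf in AOB-H Spt ranged from 3.44 to 10.8 CPM with a median of 6.27 CPM, against 3.45 to 5.19 CPM with a median of 4.50 CPM in Sham-H, and 5 of 7 animals were above all shams. Its log2 fold change was 0.57 ± 0.20 (SE, adjusted p = 0.235). In AOB-H LV it was 0.43 ± 0.19 (SE, adjusted p = 0.956), and 0.40 without the 3 animals whose labels are in doubt. AOB-H replicate 3 had both the highest Hbegf level, 10.6 CPM, and the highest Tgfa level, 5.47 CPM, in LV. Across the 21 group means of log2 CPM, Pearson's r between Tgfa and Hbegf was 0.89, whereas r between Tgfa and each of the 4 receptors lay between -0.31 and -0.08. The groups share animals across chambers and differ in library series, so this is a description.

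Nrg1, the neuregulin ligand, passed an adjusted p of 0.05 in no banding comparison in edgeR. In AOB-F LV its levels were 0.0757, 0.305, 0.371 and 0.272 CPM, from 1, 5, 6 and 4 counts, against 1.00, 0.904 and 1.23 CPM in Sham-LF, from 18, 13 and 21 counts. All AOB-F libraries were below all shams. The mean was 0.256 ± 0.127 CPM (SD, n = 4) against 1.05 ± 0.169 CPM (SD, n = 3). The log2 fold change was -1.96 ± 0.54 (SE) and missed the threshold in edgeR (adjusted p = 0.0691). It passed in DESeq2 (adjusted p = 0.0322), with library series as a covariate (adjusted p = 0.0403) and without AOB-F replicate 3 (adjusted p = 0.0326). Over its 16 alternatives the value stayed between -2.19 and -1.70 and the adjusted p ranged from 0.0322 to 0.361. The 6 endothelial markers, of a cell type known to make Nrg1, had a median log2 fold change of -0.03 in the same comparison, with summed levels of 909 to 1234 CPM in AOB-F and 1035.1 to 1122 CPM in Sham-LF. None of them had an unadjusted p under 0.05. The 3 measured endocardial markers were all higher, with a median of 0.16 and 1 of 3 at an unadjusted p under 0.05. Other lists moved in the same comparison. All 5 cardiomyocyte markers were lower, 3 of them at an unadjusted p under 0.05, with a median of -0.35. Of 6 Schwann cell markers 4 were lower, with a median of -0.56 and 1 higher past an adjusted p of 0.05, at summed levels of 67.5 to 105 CPM against 76.4 to 96.9 CPM. Of 5 adipocyte markers 4 were higher, 3 of them at an unadjusted p under 0.05, with a median of 3.09. Their summed levels overlapped, at 16.8 to 39.6 CPM against 19.9 to 28.1 CPM. This list reaches the floor, with a lowest marker median of 0.378 CPM in AOB-F and 0 CPM in Sham-LF. The part of these cells in the Nrg1 values was not tested.

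In the other chambers of AOB-F, Nrg1 was 0.261, 0.460, 0.334 and 0.213 CPM in Spt against 0.0642, 0.616 and 0.184 CPM in Sham-LF, and 2.03, 0.775, 1.09 and 1.10 CPM in RV against 1.60, 1.23 and 0.860 CPM. Both pairs of groups overlapped. The log2 fold change was 0.27 in Spt, with 0.05 in RV. The response in LV minus that in RV was -2.02 ± 0.77 (SE) in the fit of all 99 libraries, at an unadjusted p under 0.05, and did not pass correction (adjusted p = 0.926). That fit has no block for the animal, although both ventricles come from the same animals. Over its 13 alternatives, which include the animal as a block, the value stayed between -2.29 and -1.40 and did not pass.

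Nrg1 was also lower in AOB-H LV, from 0.247 to 1.495 CPM with a median of 0.590 CPM, than in Sham-H LV, from 0.617 to 1.73 CPM with a median of 1.22 CPM. Of 7 AOB-H animals 5 lay below all shams. The log2 fold change was -0.85 ± 0.33 (SE, adjusted p = 0.956), and -0.64 without the 3 animals whose labels are in doubt. Within library series 1, 2 and 3 it was -1.46, -1.05 and -0.33. In AOB-H RV it was -0.76 ± 0.29 (SE, adjusted p = 1.00), and -0.66 without those animals. In PAB-F RV, Nrg1 was 0.905, 0.364 and 0.862 CPM against 1.16 and 1.85 CPM in Sham-RF, lower in all 3 animals, with a log2 fold change of -1.09 ± 0.51 (SE, adjusted p = 0.585). PAB-H RV gave -0.42 for Nrg1, and -0.41 without the animals in doubt, beside -0.13 for Tgfa. With 3 against 2 libraries in PAB-F RV, 18.6% of all genes tested were lower there without overlap.

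**Figure D4:**
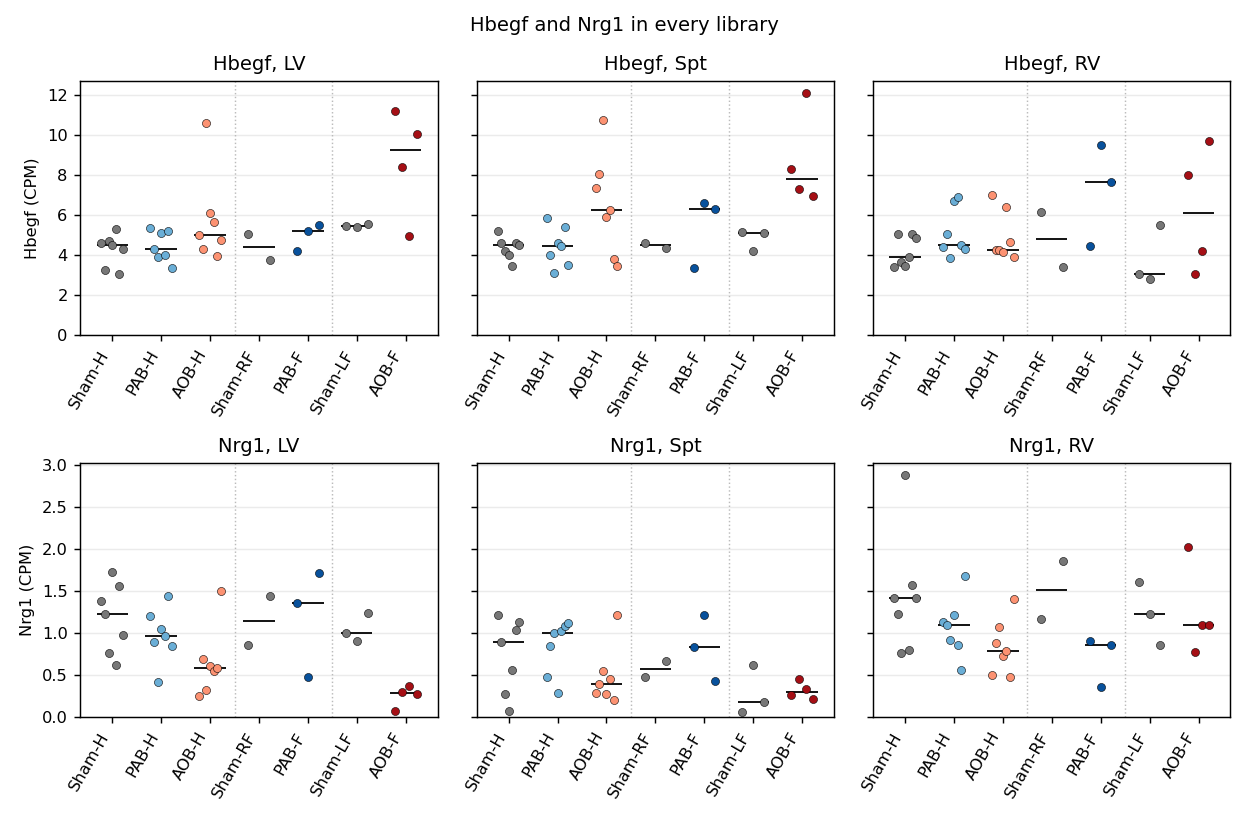
Hbegf (upper row) and Nrg1 (lower row) in CPM on linear y axes from 0, for each library of LV, Spt and RV, with the 7 conditions along the x axis and black lines for medians. In AOB-F LV, 3 of 4 Hbegf points lie above the Sham-LF points and all 4 Nrg1 points lie below them.

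Members with an unadjusted p under 0.05 numbered 3 of 7 in AOB-F LV, 2 of 7 in AOB-F Spt and 2 of 7 in AOB-F RV, where 12.7%, 12.2% and 12.9% of all genes were at that level. They numbered 2 of 7 in AOB-H LV, 3 of 7 in AOB-H Spt and 1 of 7 in AOB-H RV, against 4.54%, 15.9% and 0.937% of all genes, and 2 of 7 in PAB-F RV, against 8.37%. No member reached it in PAB-F LV and Spt, where 1.04% and 4.14% of all genes did, or in PAB-H LV, Spt and RV, where 4.72%, 4.44% and 1.26% did. In these 5 comparisons DESeq2 called no member either. Median log2 fold changes over the tested members were -0.13 in AOB-F LV, 0.21 in AOB-F Spt and 0.32 in AOB-F RV, beside 0.01, -0.01 and 0.03 over all genes tested.

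Btc stayed near the detection limit. It had at most 12 counts in any library and 3 counts or fewer in 42 of 99 libraries. In AOB-F Spt its counts were 3, 3, 3 and 2, and in Sham-LF Spt they were 2, 0 and 6. Tested without the filter on low counts, its log2 fold changes in the 12 banding comparisons lay between -0.62 and 1.00, and none had an unadjusted p under 0.05, which at these counts does not show that its level was unchanged.

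Receptor levels overlapped between AOB-F and Sham-LF in every chamber. Egfr had levels of 2.35, 2.26, 2.84 and 2.11 CPM in AOB-F LV and 2.90, 1.18 and 2.70 CPM in Sham-LF LV. Erbb2 had 5.45, 3.72, 5.56 and 3.46 CPM against 5.24, 3.89 and 6.40 CPM. The groups overlapped in both genes. Erbb3 had 2.19, 2.93, 3.89 and 2.58 CPM against 3.34, 2.78 and 3.76 CPM. Erbb4, the Nrg1 receptor of cardiomyocytes, had 1.44, 0.671, 0.927 and 0.747 CPM against 1.11, 0.487 and 1.47 CPM. The log2 fold changes of these 4 receptors in AOB-F LV were 0.08, -0.18, -0.17 and -0.13.

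In AOB-F Spt and RV their log2 fold changes ranged from -0.75 (Erbb4 in Spt) to 0.88 (Erbb4 in RV). Over the 12 banding comparisons Erbb2 ranged from -0.18 to 0.58 and Erbb3 from -0.49 to 0.36. At the compensated stage in LV and RV the 4 receptors ranged from -0.49 to 0.61, and from -0.41 to 0.80 without the 3 animals in doubt. Egfr in AOB-H Spt was the only receptor value with an unadjusted p under 0.05. Its levels were 1.73 to 3.66 CPM with a median of 2.67 CPM, against 0.803 to 2.91 CPM with a median of 2.04 CPM in Sham-H, and the log2 fold change was 0.42 ± 0.18 (SE, adjusted p = 0.265), or 0.62 without those animals. In PAB-F Spt, 5 of the 7 tested members did not overlap between 3 banded and 2 sham libraries, Tgfa, Egfr, Erbb2 and Erbb4 being higher and Erbb3 lower. This was so for 42.7% of all genes, and 18.5% in PAB-F LV, where Egfr was lower in all 3 animals.

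The 4 receptors differed between library series in the groups of 7 animals, in which each condition has the same number of animals in a series. In LV the median level of Egfr was 1.48 CPM in series 1, 2.78 in series 2 and 2.86 in series 3, and no library of series 1 reached the lowest of the others. Erbb2 had medians of 3.50, 6.17 and 6.38 CPM, also without overlap between series 1 and the others. Erbb4 had medians of 0.478, 1.42 and 2.01 CPM, and series 1 again lay below both others. Erbb3 had medians of 1.34, 2.62 and 3.78 CPM with some overlap between series 1 and 2. In RV the medians in series 1 were 0.959 CPM for Egfr, 3.79 for Erbb2, 1.30 for Erbb3 and 0.506 for Erbb4, below 2.53, 6.96, 3.95 and 1.61 CPM in series 2, with overlap in each gene. Among the ligands in LV, Tgfa had medians of 0.857, 0.886 and 0.773 CPM and Hbegf had 4.46, 5.11 and 4.12 CPM in series 1, 2 and 3. Nrg1 had 1.05, 0.617 and 1.21 CPM. Btc, at few counts, had 0.158, 0.230 and 0.369 CPM, in the same order as the receptors but with overlap. The 3 animals whose ventricles go against their labels are included in these medians. No test was made of these differences.

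**Figure D5:**
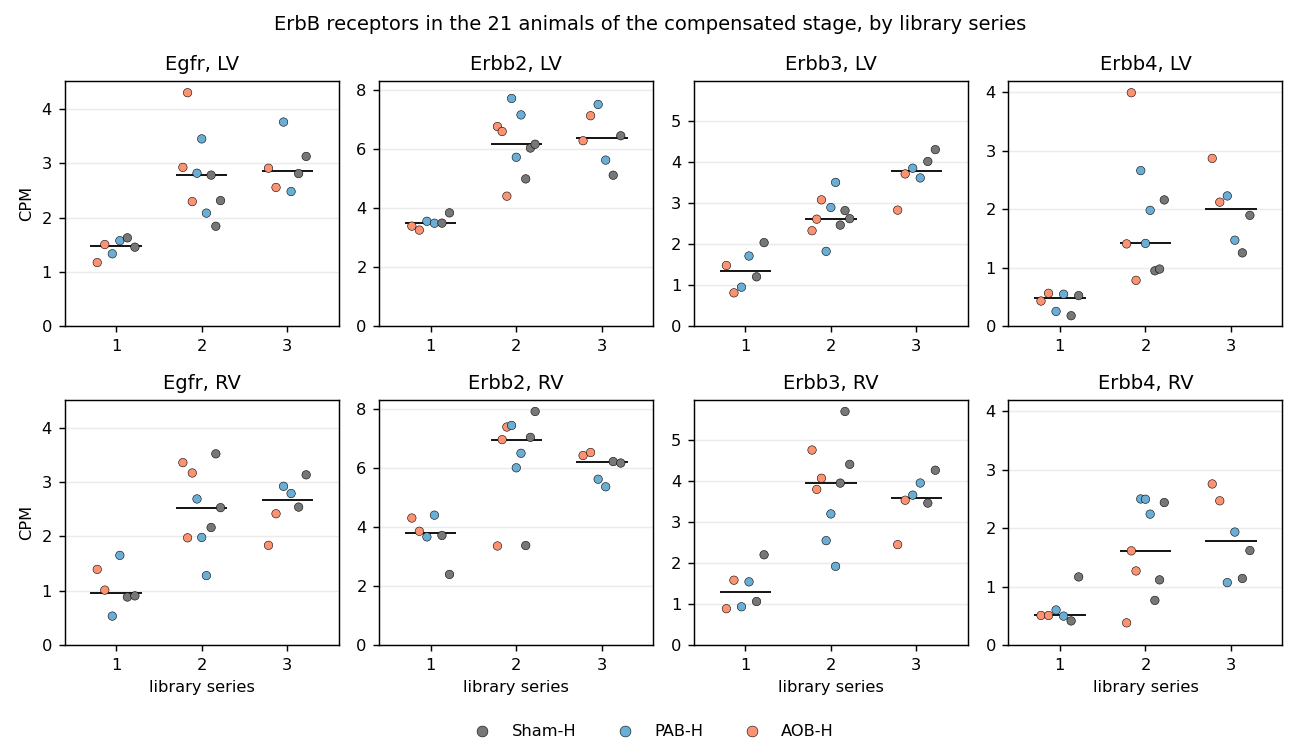
CPM of Egfr, Erbb2, Erbb3 and Erbb4 (linear y axes from 0, shared between LV and RV of a gene) in the 21 animals of the compensated stage, in LV (upper row) and RV (lower row), by library series along the x axis, with points coloured by condition and black lines for medians. In LV, libraries of series 1 lie below all others for Egfr, Erbb2 and Erbb4 in each condition, and for Erbb3 they overlap with series 2.

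Age was compared through the shams, with the mean of Sham-RF and Sham-LF against Sham-H. No member passed an adjusted p of 0.05 in edgeR or DESeq2 in any chamber, where the share of all genes past it in edgeR was 0.0171% (LV), 0.103% (Spt) and 0.0852% (RV). At an unadjusted p under 0.05 there were 2 members, both in Spt. Tgfa in Spt was 1.07 and 1.54 CPM in Sham-RF and 1.60, 0.969 and 2.03 CPM in Sham-LF, against 0.423 to 1.10 CPM in Sham-H. The ranges overlapped, and the log2 fold change was 1.06 ± 0.40 (SE, adjusted p = 0.201). Erbb4 in Spt had a log2 fold change of -1.05 ± 0.50 (SE, adjusted p = 0.287). In LV and RV all older shams are of library series 2, so age and series can be compared only through the young animals of that series. Erbb3 in LV shows the dependence, with a log2 fold change of 0.42 in the fit without covariates and 0.37 with library series as a covariate. With the replicate number as a block it was 1.13, which alone passed (adjusted p = 0.0102, over a range of 0.0102 to 0.949 across the alternatives without a library left out). That block sets older shams of series 2 largely against young animals of series 1, so age and series cannot be told apart in it. In LV of the young animals, Erbb3 had a median of 1.34 CPM in series 1 and 2.62 CPM in series 2.

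Between chambers of Sham-H, no member passed an adjusted p of 0.05, and the share of all genes was 0% for RV minus LV, 0.0923% for Spt minus LV and 0.772% for RV minus Spt. Nrg1 was higher in RV, from 0.764 to 2.88 CPM with a median of 1.42 CPM, than in Spt, from 0.0688 to 1.22 CPM with a median of 0.896 CPM. The log2 difference was 0.92 ± 0.34 (SE, adjusted p = 0.289). Erbb3, which binds Nrg1, was 1.06 to 5.69 CPM with a median of 3.95 CPM in RV and 0.401 to 3.21 CPM with a median of 2.22 CPM in Spt. Its log2 difference of 0.77 ± 0.31 (SE, adjusted p = 0.344) passed with library series as a covariate, at 1.09 (adjusted p = 0.00369, over a range of 0.00369 to 0.405). No Spt library is of series 1. With the animal as a block the Erbb3 value was 0.69 and the Nrg1 value 0.90, and neither passed. Without the 3 animals in doubt they were 0.81 and 0.98.

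Whether the response changed from compensation to failure, or differed between the loaded and the other ventricle, was tested as an interaction. No member passed, and 0% of all genes did in any of the 6 differences between stages and the 4 differences between ventricles. DESeq2 called no member in them either. Besides the Nrg1 difference between ventricles given above, 1 member value had an unadjusted p under 0.05. It was Tgfa in RV, whose response to PAB at failure exceeded that at compensation by 2.204 ± 1.03 on the log2 scale (SE, adjusted p = 1.00), and by 2.09 without the 3 animals in doubt. The corresponding differences of Tgfa for AOB were 1.17 (LV), 0.74 (Spt) and 1.37 (RV), or 0.65, 0.76 and 1.56 without those animals, each of the former with an unadjusted p above 0.05.

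The genes around the receptors were taken from 5 lists of 92 genes in all, of which 84 were in the table and 78 to 80 were tested per chamber. None passed an adjusted p of 0.05 in any of the 12 banding comparisons with edgeR or DESeq2. At an unadjusted p under 0.05 there were 4 higher and 2 lower in AOB-F LV, 2 higher and 3 lower in AOB-F Spt, and 3 higher and 1 lower in AOB-F RV, which is 7.50%, 6.41% and 5.06% of those tested. The shares of all genes were larger, at 12.7%, 12.2% and 12.9%. The median log2 fold change of the 17 tested genes induced by ERK signalling was 0.26 in AOB-F LV, 0.15 in AOB-F Spt and 0.13 in AOB-F RV, with 14, 10 and 11 of them above 0. At an unadjusted p under 0.05, 3 were higher and 2 lower in AOB-F LV, 1 higher and 1 lower in AOB-F Spt, and 0 in AOB-F RV. In PAB-F the median of these 17 genes was -0.36 in LV, -0.29 in Spt and -0.25 in RV. At the same level 3, 5 and 7 of them were lower and 0 were higher, where 1.04%, 4.14% and 8.37% of all genes were called in either direction. In older against young shams, a comparison that includes Sham-RF, the medians of these genes were 0.13 (LV), 0.18 (Spt) and 0.31 (RV). Over all genes tested they were -0.01, -0.03 and -0.01. The part of this sham level in the PAB-F values was not tested. For the proteases and regulators of ligand shedding, 11 of 12 in AOB-F LV, 10 of 11 in AOB-F Spt and 11 of 11 in AOB-F RV had a log2 fold change above 0. Their medians were 0.14, 0.13 and 0.25, beside 0.01, -0.01 and 0.03 over all genes tested. At an unadjusted p under 0.05, 1, 0 and 1 of them were higher and 0 were lower, against the 12.7%, 12.2% and 12.9% of all genes. The share of all genes above 0 was not counted. Receptor inhibitors and feedback genes had medians of -0.06, 0.06 and 0.14 over 15 genes in these comparisons, and adaptors and kinases below the receptors had 0.01, 0.01 and 0.17 over 33 genes.

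Among the other ligands of the family, Areg, Ereg and Epgn, named here after their values were seen, did not pass the filter on low counts in any chamber. Nrg4, also named after its values were seen, did not pass the filter in the Spt fit. Its level in Sham-H was 0.0438 to 1.71 CPM in RV with a median of 0.649 CPM. In LV it was 0.0633 to 0.666 CPM with a median of 0.251 CPM. In Spt it was 0 to 0.182 CPM with a median of 0.0688 CPM, and no library there had over 4 counts. These levels are a description, and no test of the chambers is given for this gene.

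Other genes were ranked by how closely their mean log2 CPM followed each member over the 21 groups, among 10425 genes with a mean of at least 1 CPM. Tgfa was followed most closely by Uchl1 (r = 0.97), a neuronal deubiquitinase, Gdf15 (r = 0.97), a stress-induced cytokine, and Tmem117 (r = 0.96). Hbegf was followed by Akip1, Rhoq and Phyhipl, each with r = 0.94. The receptors had no neighbour this close. The highest r was 0.87 for Egfr (Aff3), 0.86 for Erbb2 (Tubgcp6), 0.89 for Erbb3 (Gas7) and 0.89 for Erbb4 (Fam49a). The next were Slc40a1 and Mrc2 for Egfr, Tnik and Nfatc2 for Erbb2, Chp2 and Tenm3 for Erbb3 and Ikbkap and Kcnj3 for Erbb4, with r between 0.83 and 0.88. Nrg1 and Btc had a mean under 1 CPM and were left out of this ranking. The points share animals and library series, and no p is given.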

How the data were processed

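Single-end reads were trimmed by the authors with Trim Galore, aligned by STAR (rat build Rnor6.0, UCSC gene annotation) and counted per gene with featureCounts, multiple overlaps being disabled. Whether counting used strand is not stated, so reads of a gene and an overlapping antisense gene may not be told apart. The deposited table holds whole-number counts, normalized counts (a signal on a linear scale, which equals the counts divided by the authors' DESeq2 size factors) and FPKM. Tests used the deposited counts. The deposited FPKM served to compare levels between genes, and CPM was computed after TMM normalization over all 99 libraries.

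Groups followed titles and source names. The tissue field of RV samples names the left ventricle, and the description of Sham-LF replicate 1 RV names another sham column. In both cases the title was followed. Each chamber's 33 libraries with 7 conditions were fitted with edgeR 4.0.16 (quasi-likelihood, filterByExpr, no covariate, R 4.3.3), and comparisons between chambers came from 1 fit of all 99 libraries. Benjamini-Hochberg adjustment was over all genes tested, with a threshold of 0.05. The fit was tested on simulated data. Replicates are separate animals. Chambers of 1 condition with 1 number come from 1 animal by their titles. Deviations from the group mean correlated above 0.1 in 27 of 33 LV and RV pairs, 18 of 33 LV and Spt pairs and 22 of 33 Spt and RV pairs, and the animal block changed no call of a member. Alternatives were RLE, DESeq2 1.42.0, no filter, leaving out each replicate or the 3 animals in doubt, library series, the replicate number as a block, and other sets of libraries. Named genes were the 8 members, pathway genes past the threshold in a banding comparison, of which there were none, and the 3 genes with the highest Pearson correlation with each member with a mean of at least 1 CPM, leaving out LOC, RGD and Mir symbols. Members, lists and markers were chosen with earlier results of these data known. No genome of the build was used, so no coordinates or sequences are given.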

Additional observations from a re-analysis of the deposited data

Results flagged for a closer look

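Of 96 groups of 4 or 7 libraries examined over the 8 members, 7 held a library that stood apart from the rest by Dixon's gap ratio. For normally distributed values, chance gives such a library in about 1 of 20 groups. CPM values of low counts need not be so distributed, and this rate is a guide only. In AOB-H LV, replicate 3 had 5.47 CPM of Tgfa against 0.551 to 2.24 CPM in the others, and 10.6 CPM of Hbegf against 3.93 to 6.09 CPM. AOB-H replicate 7 had 1.495 CPM of Nrg1 in LV against 0.247 to 0.690 CPM, and 1.21 CPM in Spt against 0.2001 to 0.551 CPM. Sham-H replicate 4 had 2.88 CPM of Nrg1 in RV against 0.764 to 1.58 CPM. AOB-H replicate 2 had 2.27 CPM of Erbb4 in Spt against 0.709 to 1.20 CPM. PAB-H replicate 1 had 0 CPM of Btc in RV, against 0.258 to 0.394 CPM in the others, where 0 counts allow up to 3. No difference between stages or ventricles passed an adjusted p of 0.05 for a member.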

How the results depend on the processing

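The number of members called kept its main value in 497 of 511 recomputations over 28 comparisons, and the 21 log2 fold changes with an unadjusted p under 0.05 kept their direction in all 376 recomputations. In AOB-F Spt the count of 1 fell to 0 with only the libraries of both groups and in 1 fit of all 99 libraries, and ranged from 0 to 1 with a replicate left out. In AOB-F LV the count of 0 became 1 with DESeq2 and with library series as a covariate, and ranged from 0 to 3 with a replicate left out. In AOB-H Spt it became 1 with DESeq2 and ranged from 0 to 1. In RV minus Spt of Sham-H it became 1 with library series as a covariate. With the replicate number as a block, 1 member (Erbb3) was called in older against young shams in LV, and Tgfa in AOB-F Spt had a log2 fold change of 2.64 (adjusted p = 0.00722). Same-numbered banded and sham libraries come from different animals, but in the groups of 7 the number also fixes the library series. Their deviations correlated with a median r from -0.260 to 0.392, and above 0.1 in 6 of 7 pairs in PAB-H LV, PAB-H RV and AOB-H RV. In no comparison of 3 or more pairs did all pairs exceed 0.1, so the pairing was not used in the main fits.

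Pathway list genes called in older against young shams numbered 1 with DESeq2 and 12 with the replicate block in LV, 1 with DESeq2 in Spt with a range of 0 to 12 when a replicate was left out, and 1 with library series and 2 with the block in RV. They ranged from 0 to 3 in AOB-F LV and from 0 to 2 in AOB-F Spt with a replicate left out, and numbered 13 in PAB-F Spt with only the libraries of both groups. Between chambers they numbered 1 in RV minus LV without the 3 animals in doubt. In RV minus Spt they numbered 1 of 80 tested in the main fit, where 0.772% of all genes passed. There they numbered 2 without those animals and 3 with the animal block. With the replicate block in LV and RV, older shams of series 2 share numbers with young animals of series 1, so age and series cannot be told apart. The cause of these changes in number was not tested. Depth limits Btc and Nrg1 most, with medians of 4 and 15 counts. No leave-one-out fit was made for comparisons between chambers of Sham-H, which has 7 animals.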
